A study of Homo sapiens with 6 samples.

Results

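Glycolysis and the response to low oxygen were followed through 36 genes in LX-2, a human cell line established from hepatic stellate cells, the cells that lay down scar matrix in injured liver. The genes were chosen by symbol, as the glucose and lactate transporters, the glycolytic enzymes, the hypoxia-inducible factors, the oxygen sensors and targets of these factors, and each symbol matched 1 of the 24789 rows of the deposited table. All cells received a 50 nM siRNA by lipid transfection and were cultured for 48 hours. In 3 libraries the siRNA was scrambled and the cells carried the label of wild type (here scrambled 1, 2 and 3), and in the other 3 it was directed against AEBP1 and the label was AEBP1 knockdown (here AEBP1 siRNA 1, 2 and 3). The comparison asks whether an siRNA against AEBP1, a gene for a collagen-binding protein, is accompanied by a different level of these genes. Nothing in the sources used here says whether the 3 libraries of a group came from separate transfections, so p-values reflect only how these samples vary, and that variation may be technical.

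Glycolysis breaks glucose down to pyruvate in the cytosol, and lactate dehydrogenase interconverts pyruvate and lactate, which leaves the cell through monocarboxylate transporters. When oxygen is scarce, prolyl hydroxylases no longer mark the HIF alpha subunits for the ubiquitin ligase that holds VHL, the subunits persist, and genes of glucose uptake, glycolysis and lactate export are among those they activate. Hepatic stellate cells are known to take up glycolysis when they become scar-forming myofibroblasts. LX-2 cells are an activated, dividing line, so the values below describe that state.

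The libraries held 34433510 to 49432960 counts each. AEBP1 itself went against 2 of the 6 labels. As CPM, its count scaled to 1000000 counts of the adjusted library size, it was at 53.6, 48.7 and 25.1 in scrambled 1, 2 and 3 and at 29.7, 27.7 and 48.3 in AEBP1 siRNA 1, 2 and 3. The library labelled scrambled 3 was thus the lowest of all, and the library labelled AEBP1 siRNA 3 stood with scrambled 1 and 2. Between the labelled groups AEBP1 differed by -0.27 on the log2 scale (SE 0.31; edgeR adjusted p = 0.991), with a 95% interval from -0.97 to 0.43. AEBP1 siRNA 1 was the most distant library, with a score of 65.9 on the first principal component against -17.3 to -5.74. All group differences below rest on the labels as given. Markers of stellate cells were present, led by COL1A1, the main scar collagen, at 1513 CPM, and VIM, a mesenchymal filament, with DES at no more than a trace and LRAT at 0. Defining markers of other liver cells were at or near 0, among them ALB and APOB for hepatocytes, EPCAM for epithelium, PECAM1 for endothelium and PTPRC for leukocytes, with means of at most 0.116 CPM in either group. The full marker lists were not all low: summed CPM ran from 4.97 to 9.23 for hepatocytes, from 184 to 253 for epithelium, most of it KRT18, from 56.4 to 70.9 for endothelium, most of it FLT1, and from 19.2 to 25.8 for leukocytes, most of it CD68. In such bulk samples, fewer cells of a type and less RNA per cell cannot be told apart.

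None of the 34 genes that could be tested passed the threshold between the labelled groups, an edgeR adjusted p under 0.05, in either direction. Over all 16250 genes tested that threshold was passed by 0.00615%. The same 34 genes included 0 with an unadjusted p under 0.05, against 1.33% of all genes tested, and DESeq2 and limma-voom also called 0 of them. Their log2 fold changes ran from -0.13 for HK2 to 0.26 for ADM, with a median of 0.013, where the median of all genes tested was -0.0023. The 95% interval of 31 of the 34 lay within a fold of 1.5 either way and that of all 34 within a fold of 2. The remaining 3 were SLC2A3, ADM and ANKRD37, whose intervals reached 0.62, 0.72 and -0.91 on the log2 scale. BNIP3L was the only gene of the 34 (2.94%) whose labelled groups did not overlap, where 5.93% of all genes tested did not. CA9, the cell-surface carbonic anhydrase used as a marker of hypoxia, had 0 counts in all 6 libraries, and EGLN3 had 0 to 9 counts, so neither was tested.

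**Figure D1:**
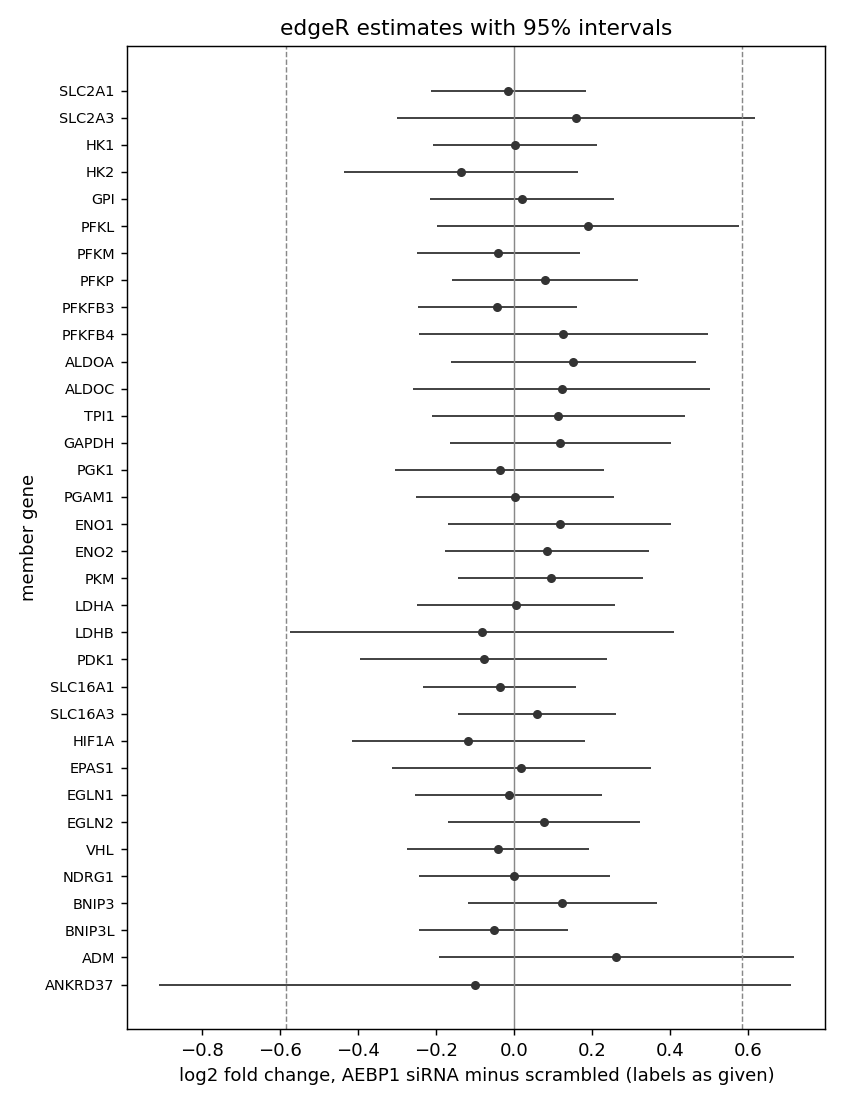
Log2 fold change of each tested gene (x axis, AEBP1 siRNA minus scrambled, labels as given) with its 95% interval as a horizontal bar; genes run down the y axis by role, and dashed lines mark a fold of 1.5. Every interval includes 0, and ADM has the largest estimate, 0.26.

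The levels per length, as deposited FPKM (fragments per kilobase of transcript, scaled to the library's fragments), spanned the range from GAPDH at the top to CA9 at 0. Means over the 6 libraries were at least 100 FPKM for 9 genes, between 10 and 100 for 19, and below 10 for 8. GAPDH, the enzyme that oxidises glyceraldehyde 3-phosphate, was at 1347 FPKM ± 68.9 (SD, n = 3) with scrambled siRNA as labelled and 1469 FPKM ± 265 (SD, n = 3) with AEBP1 siRNA as labelled. TPI1, which interconverts the triose phosphates, was at 673 FPKM ± 25.3 and 735 FPKM ± 151, and ENO1, the main enolase, at 659 FPKM ± 31.4 and 722 FPKM ± 117. In all 3 genes AEBP1 siRNA 1 was the highest library. PGK1 and PGAM1, enzymes between GAPDH and ENO1 in the pathway, were lower. PGK1 was at 39.1 FPKM ± 3.80 and 38.4 FPKM ± 3.06, and PGAM1 at 65.7 FPKM ± 6.02 and 66.3 FPKM ± 4.65. Regulators had means over the 6 libraries that ran from HIF1A and EPAS1 at 165 and 103 FPKM to EGLN2, PFKFB3 and VHL at 36.6, 18.3 and 15.9 FPKM. Lower still, EGLN1 was at 7.02 FPKM ± 0.463 and 7.02 FPKM ± 0.696, and PFKFB4 at 3.49 and 3.66 FPKM. PDK1, a kinase that inhibits pyruvate dehydrogenase, was at 2.88 and 2.35 FPKM.

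**Figure D2:**
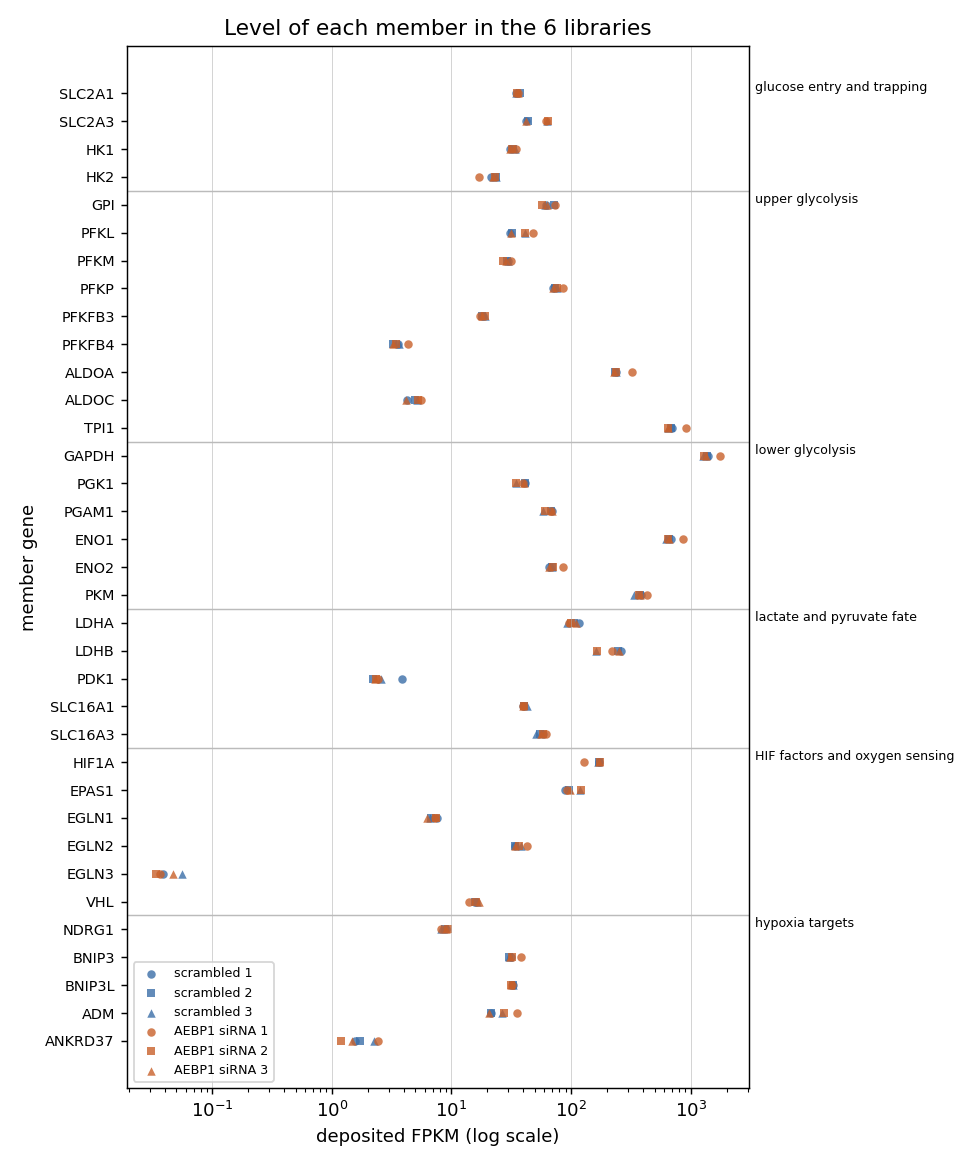
Deposited FPKM (x axis, log scale) of each gene in each of the 6 libraries, with genes ordered by role down the y axis; blue marks are libraries labelled scrambled and orange marks those labelled AEBP1 siRNA, by replicate shape, and values of 0 are not drawn. GAPDH sits at the right end, EGLN3 at the left, and the colours overlap for nearly every gene.

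Glucose enters through facilitative transporters and is trapped by hexokinase. SLC2A3, the high-affinity transporter GLUT3, was at 186, 194 and 279 CPM in scrambled 1, 2 and 3 and at 271, 278 and 188 CPM in AEBP1 siRNA 1, 2 and 3. The 3 high libraries were scrambled 3 and AEBP1 siRNA 1 and 2, which were also the 3 lowest in AEBP1, and the labelled groups overlapped fully. For SLC2A3 this gave 0.16 as the log2 fold change (SE 0.20, edgeR adjusted p = 0.991), and 0.084 without AEBP1 siRNA 1. SLC2A1, the widespread transporter GLUT1, stayed between 144 and 155 CPM in all 6 libraries. Of the FPKM summed over both transporters, SLC2A1 took 45.4%, 46.0% and 35.6% in scrambled 1, 2 and 3 and 36.6%, 35.5% and 46.1% in AEBP1 siRNA 1, 2 and 3. The difference between the labelled groups, -2.96 percentage points, was within their SDs of 5.84 and 5.81 (exact permutation p = 0.8, two-sided, n = 3 per group, where 0.1 is the smallest p possible). HK2, the inducible hexokinase, was at 140, 152 and 152 CPM in scrambled 1, 2 and 3, and at 110, 148 and 147 CPM in AEBP1 siRNA 1, 2 and 3. Only AEBP1 siRNA 1 was low. HK2 had a log2 fold change of -0.13 (SE 0.13, edgeR adjusted p = 0.991), which was -0.0072 without AEBP1 siRNA 1. HK1, the constitutive hexokinase, lay between 126 and 140 CPM, so that HK2 made up 41.2% ± 0.504 of hexokinase FPKM in the libraries labelled scrambled and 38.8% ± 5.18 in those labelled AEBP1 siRNA (exact permutation p = 0.9, n = 3).

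Phosphofructokinase commits sugar to glycolysis, and it has 3 isozymes. PFKL, the liver isozyme, was at 102, 106 and 137 CPM in scrambled 1, 2 and 3 and at 155, 133 and 105 CPM in AEBP1 siRNA 1, 2 and 3. Scrambled 3 and AEBP1 siRNA 1 and 2 were again the high libraries. PFKL had a log2 fold change of 0.19 (SE 0.17, edgeR adjusted p = 0.991), and of 0.053 without AEBP1 siRNA 1. PFKP, the platelet isozyme, lay between 207 and 251 CPM and PFKM, the muscle isozyme, between 94.0 and 106 CPM, and in both AEBP1 siRNA 1 was the highest. PFKP held 53.2% ± 1.58 of phosphofructokinase FPKM in the libraries labelled scrambled and 53.0% ± 0.856 in those labelled AEBP1 siRNA (exact permutation p = 0.8, n = 3), so it was the main isozyme in each of the 6 libraries. PFKFB3 and PFKFB4 make fructose 2,6-bisphosphate, the activator of phosphofructokinase. PFKFB3 had between 78.9 and 89.4 CPM and PFKFB4 between 11.7 and 16.9 CPM. PFKFB4 had a log2 fold change of 0.13 (SE 0.16, edgeR adjusted p = 0.991), with AEBP1 siRNA 1 the highest library, and without that library it was -0.015.

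The other enzymes of upper glycolysis had their highest value in AEBP1 siRNA 1. ALDOA, the main aldolase, was at 399, 390 and 396 CPM in scrambled 1, 2 and 3 and at 536, 393 and 388 CPM in AEBP1 siRNA 1, 2 and 3. Its log2 fold change of 0.15 (SE 0.14, edgeR adjusted p = 0.991) became -0.015 without AEBP1 siRNA 1. TPI1 gave the same picture, with 975, 949 and 896 CPM against 1249.6, 885 and 919 CPM, and a log2 fold change of 0.11 (SE 0.14, edgeR adjusted p = 0.991) that became -0.060. ALDOC, the aldolase of brain, was between 8.36 and 11.8 CPM, and ALDOA held at least 97.8% of aldolase FPKM in every library. GPI, which isomerises glucose 6-phosphate, lay between 165 and 197 CPM.

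In lower glycolysis, GAPDH, ENO1 and PKM had their highest value in AEBP1 siRNA 1 and their lowest in scrambled 3. GAPDH was at 2819, 2720.0 and 2548 CPM in scrambled 1, 2 and 3 and at 3455, 2569.9 and 2762 CPM in AEBP1 siRNA 1, 2 and 3. GAPDH and ENO1 each had a log2 fold change of 0.12 (SE 0.12, edgeR adjusted p = 0.991). Without AEBP1 siRNA 1 they were -0.016 and -0.017. PKM, the pyruvate kinase that yields pyruvate and ATP, was at 1008, 979 and 881 CPM and at 1112, 952 and 999 CPM in the same order of libraries, a log2 fold change of 0.095 (SE 0.10, edgeR adjusted p = 0.991) that was 0.029 without AEBP1 siRNA 1. PGK1, the kinase that makes the first ATP of the pathway, followed another order. It was at 230, 226 and 191 CPM in scrambled 1, 2 and 3 and at 214, 189 and 228 CPM in AEBP1 siRNA 1, 2 and 3. Scrambled 3 and AEBP1 siRNA 2 were the low libraries, as they were for PGAM1, the mutase of the next step, which lay between 121 and 146 CPM. ENO2, the neuronal enolase, held 9.43% ± 0.635 of enolase FPKM in the libraries labelled scrambled and 9.33% ± 0.504 in those labelled AEBP1 siRNA (exact permutation p = 0.9, n = 3). GAPDH, ENO1, PGAM1 and other enzymes here have near-identical processed copies in the genome, and the sources used here do not give how reads shared with such copies were counted, so their levels are uncertain.

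LDHB, the dehydrogenase subunit of oxidative tissues, differed by 1.62-fold between its highest and lowest library, the most among the 9 genes at 100 FPKM or more. It was at 385, 364 and 238 CPM in scrambled 1, 2 and 3 and at 320, 240 and 372 CPM in AEBP1 siRNA 1, 2 and 3. The high libraries were scrambled 1 and 2 and AEBP1 siRNA 3, the low ones scrambled 3 and AEBP1 siRNA 2, and AEBP1 siRNA 1 lay between. LDHA, the subunit of glycolytic tissues, was at 246, 226 and 198 CPM and at 236, 210 and 226 CPM. Of lactate dehydrogenase FPKM, LDHA made up 30.8%, 30.1% and 36.4% in scrambled 1, 2 and 3. In AEBP1 siRNA 1, 2 and 3 it made up 30.3%, 37.5% and 30.6%. LDHB was the larger part in all 6, and the labelled groups differed by 0.348 percentage points, within SDs of 3.41 and 4.11 (exact permutation p = 0.8, n = 3). With shares taken from CPM the difference was 1.42 percentage points. Counts and FPKM of LDHA imply a length between 2045 and 2490 bases depending on the library, so its FPKM shares need not follow its CPM. The exporters SLC16A1, the transporter MCT1, and SLC16A3, the lactate exporter MCT4, lay between 166 and 177 CPM and between 137 and 153 CPM. PDK1 was at 23.9, 22.3 and 24.7 CPM and at 18.6, 24.9 and 23.7 CPM, low in AEBP1 siRNA 1. Its deposited FPKM had another order, with 3.85 in scrambled 1 and 2.22 to 2.56 in the other 5 libraries. Counts and FPKM of PDK1 together imply a transcript length between 6157 and 10640 bases depending on the library, so its FPKM cannot be read as its read count per fixed length.

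Windows of 250 bases before the annotated start of 5 of these genes are printed, because their genes stand for the orders of libraries described here: LDHB and PGK1 (low in scrambled 3 and AEBP1 siRNA 2), LDHA as the partner of LDHB, and PFKL and ADM (high in scrambled 3 and AEBP1 siRNA 1 and 2). They run 5′ to 3′ on the gene's strand and come from RefSeq on GRCh38.p14, which is not the build of the deposited table. Capitals mark ACGTG or GCGTG, the core letters bound by HIF, on either strand, which reads CACGT or CACGC on the other strand; a CACGTG holds 2 overlapping matches. The windows are LDHA at chr11:18394313-18394562 (+), LDHB at chr12:21657843-21658092 (-), PGK1 at chrX:78103998-78104247 (+), PFKL at chr21:44299803-44300052 (+) and ADM at chr11:10304823-10305072 (+).
LDHA: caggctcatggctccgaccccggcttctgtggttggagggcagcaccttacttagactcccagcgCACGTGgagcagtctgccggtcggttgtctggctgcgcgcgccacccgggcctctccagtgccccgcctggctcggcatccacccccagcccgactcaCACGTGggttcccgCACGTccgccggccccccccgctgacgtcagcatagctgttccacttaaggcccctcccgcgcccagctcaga
LDHB: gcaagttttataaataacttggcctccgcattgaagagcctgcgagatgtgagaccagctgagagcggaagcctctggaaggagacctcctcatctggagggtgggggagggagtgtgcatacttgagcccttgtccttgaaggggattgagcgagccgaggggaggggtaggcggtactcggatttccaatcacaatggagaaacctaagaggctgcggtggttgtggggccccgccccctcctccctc
PGK1: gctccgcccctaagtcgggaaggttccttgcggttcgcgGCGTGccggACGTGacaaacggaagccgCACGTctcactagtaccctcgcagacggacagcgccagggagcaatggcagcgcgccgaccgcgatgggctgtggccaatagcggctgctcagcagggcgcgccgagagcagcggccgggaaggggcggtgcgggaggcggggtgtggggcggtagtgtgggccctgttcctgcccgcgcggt
PFKL: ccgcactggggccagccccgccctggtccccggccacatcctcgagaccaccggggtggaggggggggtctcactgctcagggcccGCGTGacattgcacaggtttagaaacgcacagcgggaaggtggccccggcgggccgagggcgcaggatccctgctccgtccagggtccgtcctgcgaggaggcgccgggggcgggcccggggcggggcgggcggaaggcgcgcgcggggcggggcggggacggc
ADM: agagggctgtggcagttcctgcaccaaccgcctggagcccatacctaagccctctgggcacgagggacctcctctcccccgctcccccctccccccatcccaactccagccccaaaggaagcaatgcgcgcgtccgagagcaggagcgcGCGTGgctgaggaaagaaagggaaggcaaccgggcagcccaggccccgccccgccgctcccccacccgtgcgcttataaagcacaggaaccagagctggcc
The printed LDHA window held 5 matches, that of PGK1 3, those of PFKL and ADM 1 each and that of LDHB 0. LDHA had another annotated start, whose window at chr11:18396101-18396350 held 1 match and is not printed. Of 35116 windows of the same length before all RefSeq starts in the table, 43.2% held at least 1 match, 18.5% for ACGTG and 32.2% for GCGTG. The table held 59 windows for 31 of the 36 genes, of which 57.6% had a match, 37.3% for ACGTG and 30.5% for GCGTG. A match describes the letters of the window and no factor binding was measured.

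**Figure D3:**
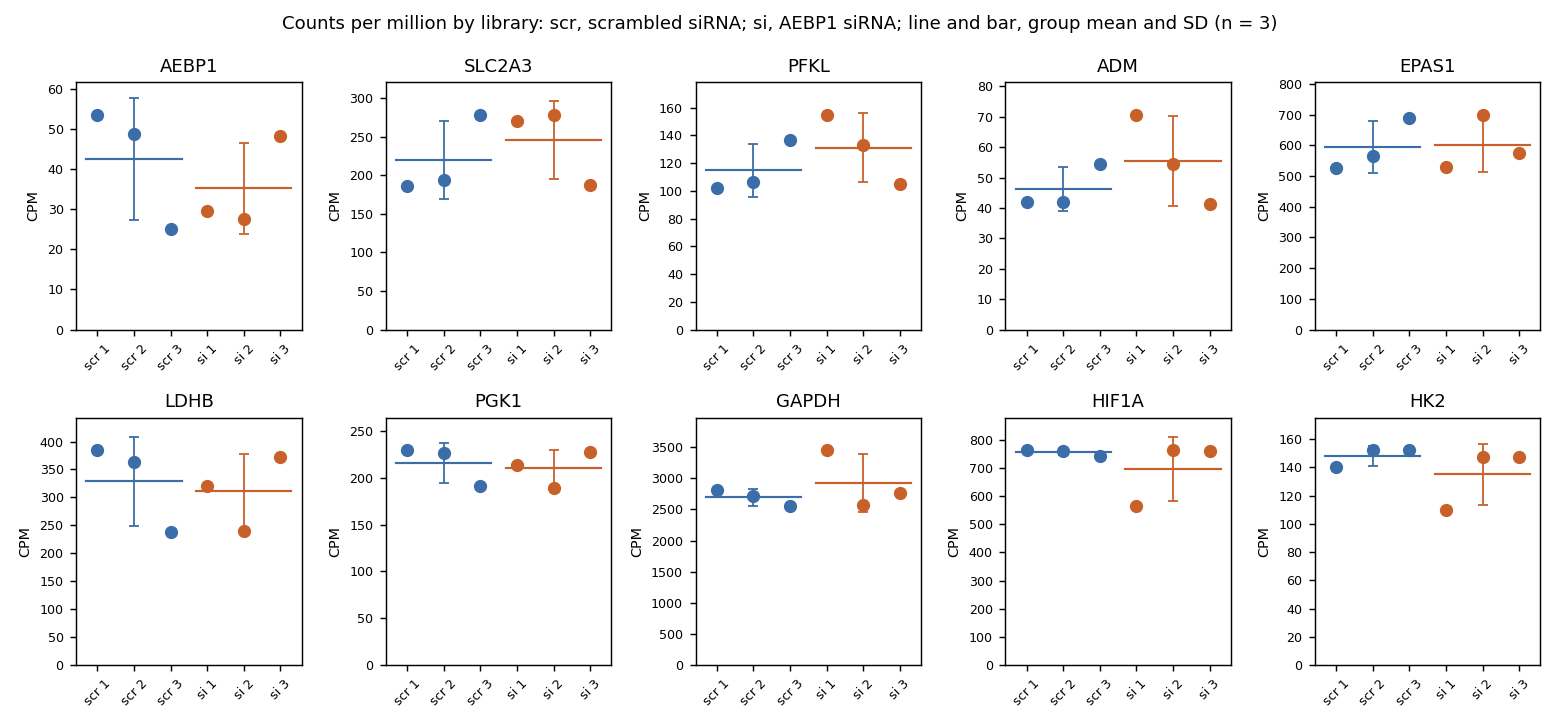
CPM (y axis, from 0) in each library (x axis) for AEBP1 and 9 genes of the pathway; points are single libraries, blue labelled scrambled and orange labelled AEBP1 siRNA, and the line and bar are the group mean and SD (n = 3). SLC2A3, PFKL and ADM are high where AEBP1 is low, LDHB and PGK1 are lowest in scrambled 3 and AEBP1 siRNA 2, and AEBP1 siRNA 1 lies outside the other 5 libraries for GAPDH, HIF1A and HK2.

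The HIF alpha subunits were abundant as transcripts. HIF1A was at 763, 759 and 744 CPM in scrambled 1, 2 and 3 and at 564, 764 and 761 CPM in AEBP1 siRNA 1, 2 and 3. The low value of AEBP1 siRNA 1 was the only one outside 744 to 764 CPM. HIF1A differed by -0.12 on the log2 scale (SE 0.13, edgeR adjusted p = 0.991), and by 0.014 without that library. EPAS1, which encodes HIF-2 alpha, was at 527, 564 and 689 CPM and at 529, 700.0 and 576 CPM. It was high in scrambled 3 and AEBP1 siRNA 2, the libraries in which LDHB and PGK1 were low, while AEBP1 siRNA 1 was as low as scrambled 1. EPAS1 held 37.2% ± 3.59 of the FPKM of both subunits in the libraries labelled scrambled and 39.7% ± 2.80 in those labelled AEBP1 siRNA (exact permutation p = 0.3, n = 3). HIF proteins are regulated mainly by their breakdown, which these transcript levels do not measure.

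The oxygen sensors are prolyl hydroxylases, and VHL is the recognition subunit of the ligase. EGLN1, the main hydroxylase, lay between 50.3 and 60.7 CPM, and VHL between 56.9 and 69.9 CPM. EGLN2 was at 81.0, 79.2 and 90.1 CPM in scrambled 1, 2 and 3 and at 97.8, 85.1 and 81.1 CPM in AEBP1 siRNA 1, 2 and 3, and the groups overlapped. EGLN2 shares its exons with RAB4B-EGLN2, a read-through gene that joins it to its neighbour RAB4B. Scrambled 1, 2 and 3 held 0 counts of it, and AEBP1 siRNA 1, 2 and 3 held 469, 165 and 429. Taking 3 counts over all of scrambled as the limit of detection, it was at least 418-fold higher with AEBP1 siRNA (edgeR adjusted p = 0.107). It passed the threshold of 0.05 with the replicate number as a block, without AEBP1 siRNA 2, with no filter on low counts and with DESeq2, and did not pass under the other alternatives run on it. Having no counts in scrambled, it passed the filter on low counts only through the libraries labelled AEBP1 siRNA. Its p-values are therefore a description and support nothing. Its counts were 4.90% to 12.1% of those of both genes together in the libraries labelled AEBP1 siRNA. Summed, the pair had 81.0, 79.2 and 90.1 CPM against 111, 89.5 and 91.5 CPM. The means were 83.4 CPM ± 5.85 and 97.4 CPM ± 12.1 (SD, n = 3), with overlapping groups (exact permutation p = 0.2). Both genes can claim the same reads, so neither level can be given with certainty. EGLN3, the hydroxylase that HIF itself induces, had 6, 0 and 9 counts in scrambled 1, 2 and 3 and 5, 4 and 6 counts in AEBP1 siRNA 1, 2 and 3. EGLN1 held 16.6% ± 1.65 and 15.7% ± 1.09 of the summed FPKM of the 3 hydroxylases (exact permutation p = 0.5, n = 3).

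Among the targets, ADM had the largest estimate of all 34 genes. ADM, which encodes the vasodilator peptide adrenomedullin, was at 42.1, 42.0 and 54.6 CPM in scrambled 1, 2 and 3 and at 70.7, 54.5 and 41.2 CPM in AEBP1 siRNA 1, 2 and 3. The highest 3 libraries were AEBP1 siRNA 1, scrambled 3 and AEBP1 siRNA 2, as for PFKL. ADM differed by 0.26 on the log2 scale (SE 0.20; edgeR adjusted p = 0.991), with a 95% interval from -0.19 to 0.72, and by 0.050 without AEBP1 siRNA 1. BNIP3, a mitophagy receptor, was at 103, 98.1 and 99.1 CPM and at 124, 103 and 101 CPM, a log2 fold change of 0.12 (SE 0.11, edgeR adjusted p = 0.991) that was 0.026 without AEBP1 siRNA 1. BNIP3L, its relative, was at 135, 133 and 132 CPM in scrambled 1, 2 and 3 and at 129, 127 and 130 CPM in AEBP1 siRNA 1, 2 and 3. The groups of BNIP3L did not overlap, at 133.3 CPM ± 1.42 and 128.6 CPM ± 1.62 (SD, n = 3), and the edgeR adjusted p was 0.991. BNIP3 made up 48.2% ± 0.545 and 51.3% ± 2.78 of the FPKM of both, higher in 3 of 3 libraries labelled AEBP1 siRNA, with an exact permutation p of 0.1 (n = 3), the smallest possible, and 0.9 after adjustment over the 11 isozyme shares compared. NDRG1, a stress-induced gene, lay between 26.8 and 30.6 CPM. ANKRD37, a small ankyrin repeat gene, lay between 1.06 and 2.33 CPM and rested on 40 to 84 counts a library. CA9 had no count in any library, which allows up to 0.061 to 0.0863 CPM at a floor of 3 counts, for counting error only.

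The library labelled AEBP1 siRNA 1 held the extreme value of most genes. In 18 of the 34 genes (52.9%) AEBP1 siRNA 1 was the highest library and in 7 (20.6%) the lowest. Of all 11582 genes that averaged 5 CPM or more, it was the highest for 37.2% and the lowest for 35.4%. Taken in either direction the shares were 73.5% of the 34, 72.5% of the 11582 and 65.2% of the 15877 tested genes with a count in every library. The position of a gene in AEBP1 siRNA 1 went with its length. Across the 34 genes, the deviation from the mean of the 6 libraries had a Pearson r of -0.72 with log2 of the length that counts and FPKM together imply. In AEBP1 siRNA 2 the r was 0.65, and in the other 4 libraries it was between -0.054 and 0.25. Over the 11582 genes it was -0.64 in AEBP1 siRNA 1 and 0.42 in AEBP1 siRNA 2, with -0.16, 0.33 and 0.44 in scrambled 1, 2 and 3 and 0.19 in AEBP1 siRNA 3. On that wider set AEBP1 siRNA 2 was thus within the values of the libraries labelled scrambled. These correlations are across genes of one library, which are not independent replicates. The 7 genes with an implied length under 2000 bases, TPI1, ALDOA and GAPDH among them, had a median deviation of 0.36 in AEBP1 siRNA 1, and the 27 longer ones a median of 0.079, with HK2, HIF1A and PDK1 at -0.36, -0.36 and -0.30. The part of length in these differences was not tested.

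**Figure D4:**
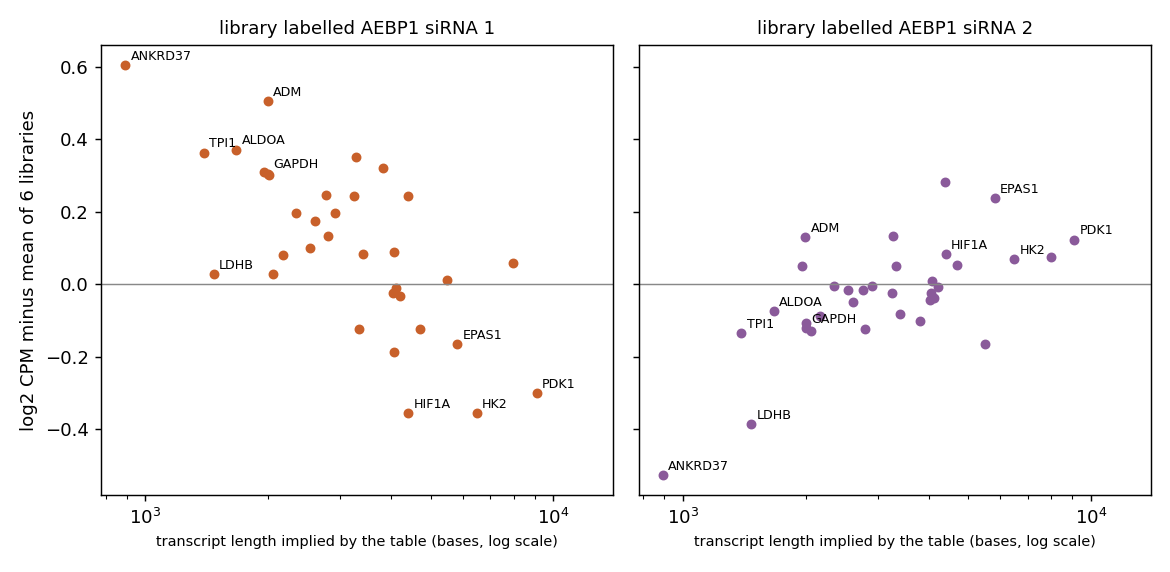
Deviation of each gene's log2 CPM from its mean over the 6 libraries (y axis) against the transcript length implied by the deposited counts and FPKM (x axis, bases, log scale), for AEBP1 siRNA 1 (left) and AEBP1 siRNA 2 (right); each point is 1 of 34 genes. The short genes TPI1 and ALDOA are above 0 on the left and below 0 on the right. ADM and ALDOC, also under 2000 bases, are above 0 on both sides, and LDHB is at 0.028 on the left. The Pearson r is -0.72 and 0.65, and the rank correlation is -0.72 and 0.55.

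Another set of differences crossed the labels. Only 4 of the 34 genes had a highest library at least 1.5 times the lowest: PFKL and LDHB by 1.52-fold and 1.62-fold, ADM by 1.71-fold and ANKRD37 by 2.19-fold. SLC2A3 came next, just under that ratio. The median over the 34 genes was 1.26-fold, and over those 11582 genes it was 1.35-fold. In SLC2A3, PFKL, PFKP, ALDOC, ENO2, EGLN2 and ADM the 3 highest libraries were those 3 in which AEBP1 was lowest. In PGK1, PGAM1 and LDHB the same 3 libraries were the lowest. The share of all genes tested with this split was not counted, so it cannot be read as particular to these genes. The second principal component of all genes tested (21.4% of the variance) had a similar division. Scrambled 1, scrambled 2 and AEBP1 siRNA 3 were at 29.95, 14.28 and 17.8 on it. Scrambled 3, AEBP1 siRNA 1 and AEBP1 siRNA 2 were at -25.96, -1.991 and -34.08, with AEBP1 siRNA 1 near the middle. A fit with replicate 3 of both groups left out was added after AEBP1 had been seen to go against these labels. The 4 libraries it keeps are divided by their AEBP1 level as well as by label, so its counts are a description and support nothing about the order above. In it, 11 of the 34 genes (32.4%) had groups that did not overlap, and so had 34.0% of all 16285 genes then tested. There 0 of the 34 passed the threshold, against 0.00614% of all genes, and 3 (8.82%) had an unadjusted p under 0.05, against 4.70% of all genes. The smallest edgeR adjusted p among the 34 was then 0.754.

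**Figure D5:**
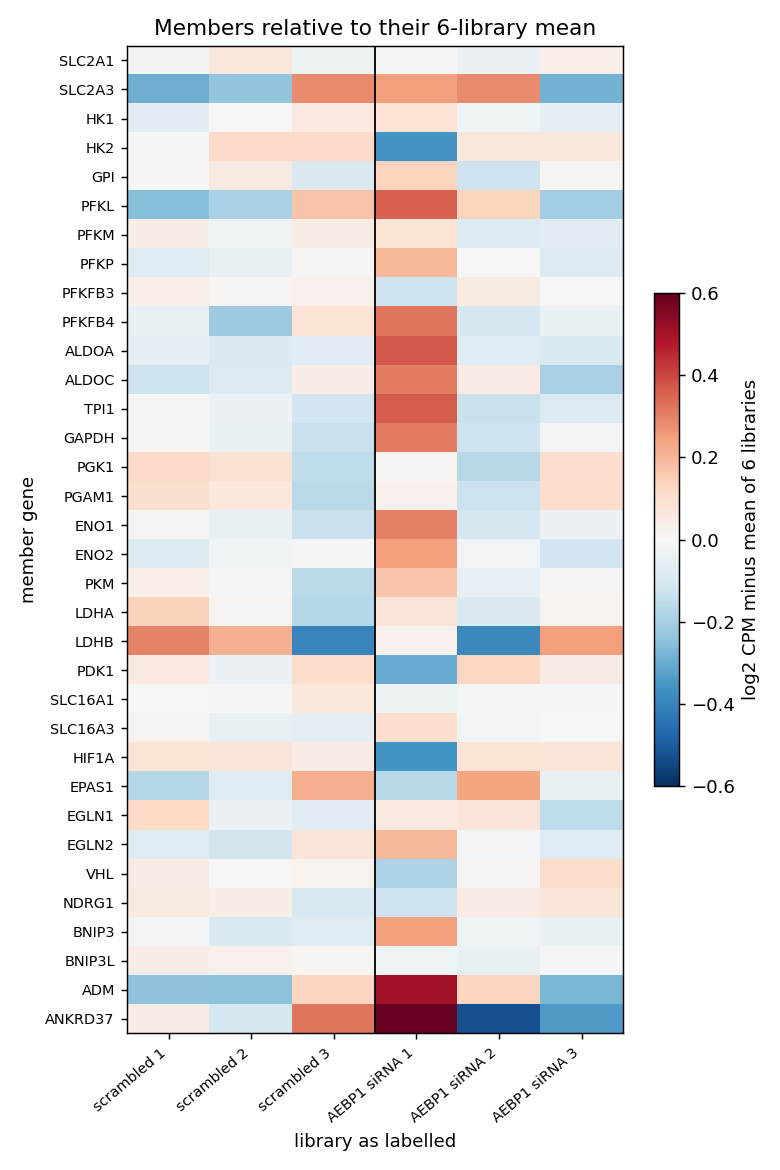
Log2 CPM of each tested gene minus its mean over the 6 libraries (colour, blue below and red above the mean), with genes by role down the y axis and libraries on the x axis; the vertical line divides the labelled groups. AEBP1 siRNA 1 is red for ALDOA, TPI1, GAPDH and ENO1 and blue for HK2 and HIF1A, and LDHB and SLC2A3 run in opposite directions in most libraries.

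Other genes of the pathway were taken from 6 lists. Of 106 further genes in 6 lists, 91 were tested and 0 passed the threshold in either direction, against 0.00615% of all genes tested. An edgeR unadjusted p under 0.05 was found for 1 (1.10%), against 1.33% of all genes tested. Groups did not overlap for 5 (5.49%), against 5.93% of all genes tested. Those 5 were PFKFB2, HKDC1, DDIT4, TKT and HILPDA. Among other glycolytic enzymes (11 of 18 tested, median log2 fold change -0.066), PFKFB2, another maker of fructose 2,6-bisphosphate, was at 8.33, 9.81 and 9.99 CPM in scrambled 1, 2 and 3 and at 6.82, 6.86 and 7.77 CPM in AEBP1 siRNA 1, 2 and 3 (edgeR adjusted p = 0.991). HKDC1, a hexokinase relative, was at 0.277 CPM ± 0.129 and 0.593 CPM ± 0.0853 (SD, n = 3, edgeR adjusted p = 0.991), and PGM2 was the most abundant, at 86.3 CPM. Other glucose transporters (9 of 11 tested, median -0.12) were led by SLC2A6 at 69.9 CPM.

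Genes of pyruvate transport, of pyruvate dehydrogenase and of its regulation (15 of 16 tested) had a median of -0.045. Among them BSG, the chaperone of the lactate transporters, was at 375 and 391 CPM in the groups labelled scrambled and AEBP1 siRNA. DLAT, a subunit of pyruvate dehydrogenase, was at 85.5 and 76.8 CPM. Other parts of the HIF machinery (12 of 13 tested) had a median of -0.033, with the coactivators CREBBP and EP300 at 230 and 212 CPM and at 235 and 196 CPM. Both coactivators were lowest in AEBP1 siRNA 1. Other hypoxia targets (33 of 33 tested) had a median of -0.011, with HMOX1, the inducible haem oxygenase, at 69.6 and 79.7 CPM and ZNF395 at 25.9 and 22.7 CPM. Genes of the pentose phosphate pathway and gluconeogenesis (11 of 15 tested) had the highest median, 0.14, with TKT, the transketolase, at 208 and 227 CPM, and PCK2, the mitochondrial phosphoenolpyruvate carboxykinase, at 134 and 152 CPM. In both of these AEBP1 siRNA 1 was the highest library.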

How the data were processed

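RNA-seq libraries of LX-2 cells were made from total RNA with an mRNA kit, per the labels' protocols. The deposited table gives, per the file headers, a read count and an FPKM value per gene and library, made by the authors. The submitters' processing notes name the build hg19. Which aligner and counter were used is not stated in the sources used here. Of its 24789 rows, 4815 were loci assembled by the authors, and 17 lines without values were left out. Library totals ran from 34433510 to 49432960 counts.

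Counts were tested with edgeR 4.0.16 in R 4.3.3 (quasi-likelihood test, group as the only term, low counts removed by filterByExpr, TMM scaling, Benjamini-Hochberg adjustment over 16250 genes, threshold 0.05). CPM use the TMM-scaled library sizes. FPKM served to compare genes and for 11 isozyme shares, compared by exact two-sided permutation tests. DESeq2 1.42.0, limma 3.58.1 and other filters, scalings and left-out libraries were alternatives. On simulated counts for this comparison (16250 genes), 85.1% of 67 genes changed 2-fold and 19.4% of 67 changed 1.5-fold were called. The changed genes averaged 5 CPM or more, 66 further ones were changed 4-fold, and 12 unchanged genes were called as well. With that many changes the adjusted threshold is easier to pass, so a lone change would be called less often. Fold changes are printed for the 12 genes with the smallest p, other pathway genes are named by smallest p and highest level in each list, except 1 that is not reported here, and BNIP3L was singled out after its values were seen. Members and lists were chosen with earlier results of these data known. Intervals are 95%.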

Additional observations from a re-analysis of the deposited data

How the results depend on the processing

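None of the 34 tested genes passed the threshold under any of the alternatives run, and their smallest adjusted p over these was 0.754. Over all genes, 1 was called in the edgeR fit reported, 0 at an adjusted p under 0.01, 2 with the replicate number as a block, 3 with no filter, 6 with DESeq2, 2 with limma-voom and 0 to 2 when each library was left out in turn. Same-numbered libraries did not deviate together across genes (correlations of 0.0961, -0.00776 and -0.102). Such correlations cannot show whether these libraries shared a batch or a transfection. Groups that did not overlap numbered 1 of 34 (2.94%, against 5.93% of all genes tested). With a library left out they numbered 2 to 4 (5.88% to 11.8%, against 10.2% to 18.4% of all genes). Once both libraries numbered 3 were removed, an alternative chosen after seeing the data, such groups numbered 11 (32.4%, against 34.0% of all genes). The median log2 fold change ran from -0.012 to 0.070 over the left-out libraries, and that of AEBP1 from -0.57 to -0.066; without replicate 3 of both groups AEBP1 was at -0.83 (edgeR adjusted p = 0.378). Of 194 fold changes of named genes under alternatives, 188 kept their sign. The other 6 reversed without AEBP1 siRNA 1, and the cause was not tested: over the left-out libraries ALDOA ran from -0.015 to 0.23, GAPDH from -0.016 to 0.21, ENO1 from -0.017 to 0.20, HIF1A from -0.19 to 0.014, TPI1 from -0.060 to 0.21 and PFKFB4 from -0.015 to 0.21. With 3 libraries a group, differences of 2-fold or less can be missed.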
